A study of Mus musculus with 12 samples.

Results

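The 10 genes of the amyloid precursor and prion families and their partners described here were measured in the hippocampus of 4-month-old mice, chosen by symbol from a table of 24736 genes. They are App with its relatives Aplp1 and Aplp2, Prnp with its relatives Prnd and Sprn, the BRI genes Itm2b and Itm2c, and the cytoplasmic adaptors Apbb1 and Apba1. All 10 symbols were in the table, and 9 of the 10 passed the expression filter and were tested, the exception being Prnd. The study compared total RNA from 3 male APP/PS1 mice, carrying the transgene APPswe and a further transgene, with that from 3 wild-type (WT) littermates of the same age. The libraries, taken to be 1 animal each, are numbered 1, 2 and 3 for APP/PS1 and 1, 2 and 4 for WT, and values are listed in that order. The RNA is from bulk tissue, so fewer cells of a type and less RNA per cell cannot be told apart. Small RNA libraries were not used here.

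The amyloid precursor protein is a membrane protein that crosses the bilayer once, and beta- and gamma-secretase cut it to release amyloid-beta, the peptide of Alzheimer plaques. Its relatives APLP1 and APLP2 are processed in a similar way but lack the amyloid-beta sequence. The prion protein is an abundant glycolipid-anchored protein of neurons that binds amyloid-beta oligomers. APPswe is a precursor with the Swedish mutation, which favours beta-secretase cleavage. In the mouse line usually given the name APP/PS1, the precursor transgene is a mouse and human chimera, and the mouse prion protein promoter drives both transgenes in a vector that also carries non-coding Prnp sequence. The labels do not name the line or its promoter. Counts per gene symbol cannot tell transcripts of a transgene from those of the mouse gene.

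The upstream sequences of Prnp and App are shown because the first belongs to the promoter that this vector carries and the second the promoter of the mouse's own precursor gene. Each is the 250 bases before a RefSeq start site (GRCm38.p6, the build also called mm10), 5′ to 3′ along the gene. Capitals mark GC boxes, the letters GGGCGG on either strand. The Prnp window is chr2:131909678-131909927, plus strand, and the App window is chr16:85173708-85173957, minus strand. The App start site used lies 1548 bases inside the annotated gene, whose span begins at a start site further upstream.
Prnp: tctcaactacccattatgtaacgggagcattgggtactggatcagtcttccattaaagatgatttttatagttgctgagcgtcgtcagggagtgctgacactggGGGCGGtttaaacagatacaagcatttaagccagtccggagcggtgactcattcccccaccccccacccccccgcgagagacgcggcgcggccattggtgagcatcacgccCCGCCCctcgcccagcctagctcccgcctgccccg
App: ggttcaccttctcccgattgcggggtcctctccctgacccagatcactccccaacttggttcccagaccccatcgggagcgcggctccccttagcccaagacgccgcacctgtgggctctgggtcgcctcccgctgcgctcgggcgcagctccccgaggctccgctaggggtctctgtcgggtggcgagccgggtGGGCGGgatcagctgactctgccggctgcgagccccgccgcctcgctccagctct
The Prnp window held 2 GC boxes, 2 CCAAT boxes (CCAAT on either strand) and 1 TATAAA on either strand, with 58.8% G and C. The App window held 1 GC box, no CCAAT box and no TATAAA, with 70.8% G and C. Among 32851 windows of the same length in the RefSeq table, 32.7% held a GC box, 33.8% a CCAAT box and 12.4% TATAAA, and the median G and C content was 52.4%. The motifs overlapped one another nowhere in either window. All 10 genes had at least 1 window in that table, and 8 of the 10 had a GC box in at least 1 of theirs. Prnd and Apbb1 had more than 1 window, so this count per gene cannot be set against the share per window, 32.7%.

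Values are given in CPM, the deposited estimated counts per 1000000 of TMM-adjusted library size. They are compared between libraries and not between genes, since the scale does not correct for transcript length. Library totals ran from 120958765 to 146904552 estimated counts. All 5 hippocampal markers fixed for the tissue check, Prox1, Wfs1, Zbtb20, Spink8 and Neurod6, were above 0 in every library. So were all markers of the cell type lists used below, so values above 0 do not by themselves tell which tissue was sampled. APP/PS1 replicate 3 stood apart: over genes with a mean of at least 1 CPM its median distance from the WT mean was 0.25 on the log2 scale, against 0.06 to 0.11 for the other libraries. It was the highest or the lowest of the 6 libraries for 61.6% of the 18060 tested genes, against 23.9% to 31.3% for each of the others. Summed hippocampal markers stood at 460 CPM in that library and 702 to 799 CPM in the others. Summed neuronal markers stood at 3748 CPM there, against 3973 and 4132 CPM in the other APP/PS1 libraries and 4221 to 4766 CPM in WT. Differences between the genotypes are therefore given with and without this library, a choice made after the libraries had been compared.

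The amyloid precursor family comes first. App encodes the amyloid precursor protein (chromosome 16, 84952666 to 85175255). It stood at 3170, 3465 and 2948 CPM in APP/PS1 replicates 1, 2 and 3, against 1580, 1522 and 1548 CPM in WT replicates 1, 2 and 4. The lowest APP/PS1 library was thus far above the highest WT library, and the groups did not overlap. Relative to the WT mean, App was at 2.05, 2.24 and 1.90 times in APP/PS1 replicates 1, 2 and 3. The log2 fold change of APP/PS1 over WT was 1.04 (SE 0.09, 95% interval 0.82 to 1.26). In edgeR's quasi-likelihood test its unadjusted p was 1.3e-05 and its Benjamini-Hochberg adjusted p over all 18060 genes was 0.117, so App did not pass the threshold of 0.05. Without APP/PS1 replicate 3 the log2 fold change was 1.09 (SE 0.07), and edgeR's adjusted p was 0.0136. Leaving out any other single library gave edgeR's adjusted p from 0.121 to 0.906. WT libraries varied little, with a coefficient of variation of 1.88% for App, against 8.13% in APP/PS1.

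**Figure D1:**
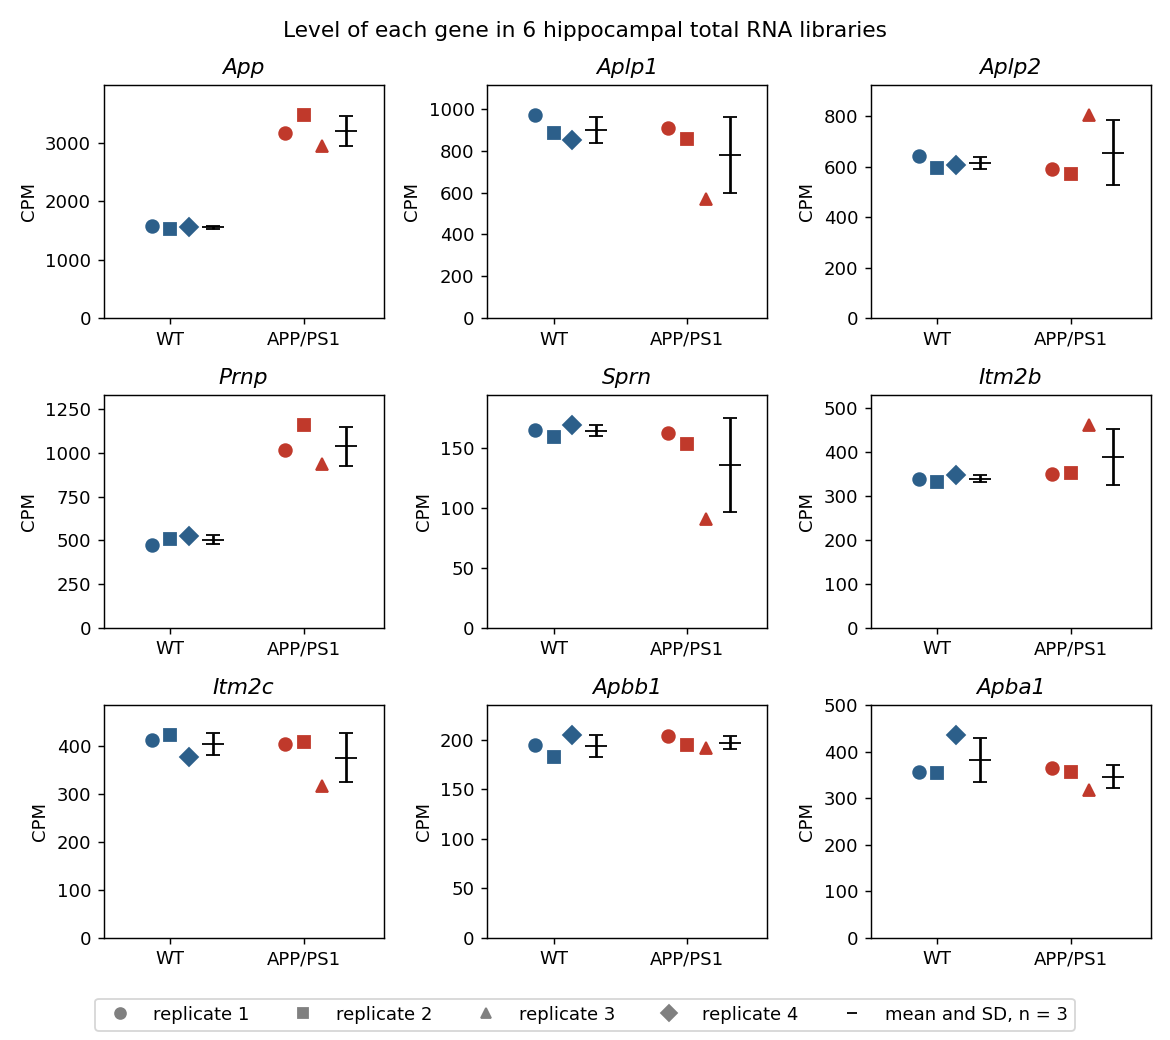
Level of each of the 9 tested genes in CPM (y axes start at 0) in the 3 WT (blue) and 3 APP/PS1 (red) libraries; symbols give the replicate number, and black bars the mean and SD of 3 libraries. App and Prnp are at 1.86 to 2.30 times the WT mean in every APP/PS1 library, and APP/PS1 replicate 3 is the outlying point for Aplp1, Aplp2, Sprn, Itm2b and Itm2c.

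Aplp1 encodes a precursor-like protein expressed mainly in neurons (chromosome 7, 30434980 to 30445582). It stood at 909, 857 and 571 CPM in APP/PS1 replicates 1, 2 and 3, against 971, 884 and 852 CPM in WT. Only APP/PS1 replicate 3 lay below the WT range. The log2 fold change was -0.21 (SE 0.18, 95% interval -0.64 to 0.21; edgeR's adjusted p 0.887), and without that library it was -0.04 (SE 0.08).

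Aplp2 encodes the widely expressed relative (chromosome 9, 31149557 to 31211848). It stood at 591, 571 and 803 CPM in APP/PS1 replicates 1, 2 and 3, against 640, 595 and 605 CPM in WT. Here the same library was the highest of the 6, while the other APP/PS1 libraries lay just below all WT libraries. This gave a log2 fold change of 0.09 (SE 0.14, 95% interval -0.24 to 0.43; edgeR's adjusted p 0.899) with all libraries and -0.08 (SE 0.06) without APP/PS1 replicate 3, a change of sign.

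The ratio of App to the sum of Aplp1 and Aplp2 within a library does not depend on how libraries are scaled. It was 2.11, 2.43 and 2.14 in APP/PS1 replicates 1, 2 and 3, and 0.981, 1.03 and 1.06 in WT replicates 1, 2 and 4. All 3 APP/PS1 ratios lay above all 3 WT ratios. Mean ratios were 2.23 ± 0.17 in APP/PS1 and 1.02 ± 0.04 in WT (SD, n = 3 each), a difference of 1.12 on the log2 scale. The two-sided exact permutation p was 0.1, the smallest that 3 against 3 libraries can give, and 0.2 after Benjamini-Hochberg adjustment over the 2 ratios tested.

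The prion family was measured in the same way. Prnp encodes the cellular prion protein (chromosome 2, 131909928 to 131938436). It stood at 1019, 1160 and 937 CPM in APP/PS1 replicates 1, 2 and 3, against 475, 509 and 527 CPM in WT replicates 1, 2 and 4. As for App, replicate 2 was the highest and replicate 3 the lowest of the APP/PS1 libraries, and the groups did not overlap. Its multiples of the WT mean were 2.02, 2.30 and 1.86 in APP/PS1 replicates 1, 2 and 3. The log2 fold change was 1.04 (SE 0.10, 95% interval 0.80 to 1.29). In edgeR's test the unadjusted p was 2.7e-05 and the adjusted p over all genes 0.165. Without APP/PS1 replicate 3 the log2 fold change was 1.11 (SE 0.08), with edgeR's adjusted p at 0.0172. With any other single library left out, edgeR's adjusted p was from 0.202 to 0.991.

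App and Prnp thus stood above WT by nearly the same factor. The ratio of App to Prnp was 3.11, 2.99 and 3.15 in APP/PS1 replicates 1, 2 and 3, and 3.32, 2.99 and 2.94 in WT replicates 1, 2 and 4. The ranges overlapped, and the means were 3.08 ± 0.08 and 3.08 ± 0.21 (SD, n = 3 each; two-sided exact permutation p = 1, smallest possible 0.1). Above the WT mean, App had 1620, 1915 and 1397 CPM more in APP/PS1 replicates 1, 2 and 3, and Prnp had 516, 656 and 433 CPM more. Both excesses had the same order across the 3 libraries, highest in replicate 2 and lowest in replicate 3. Summed choroid plexus markers (Ttr, Folr1, Prlr, Kl and Clic6, none at 0) were also highest in APP/PS1 replicate 2, at 1772, 3976 and 2390 CPM in APP/PS1 against 1476, 1776 and 1671 CPM in WT. Their part in the results for App and Prnp was not tested.

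**Figure D2:**
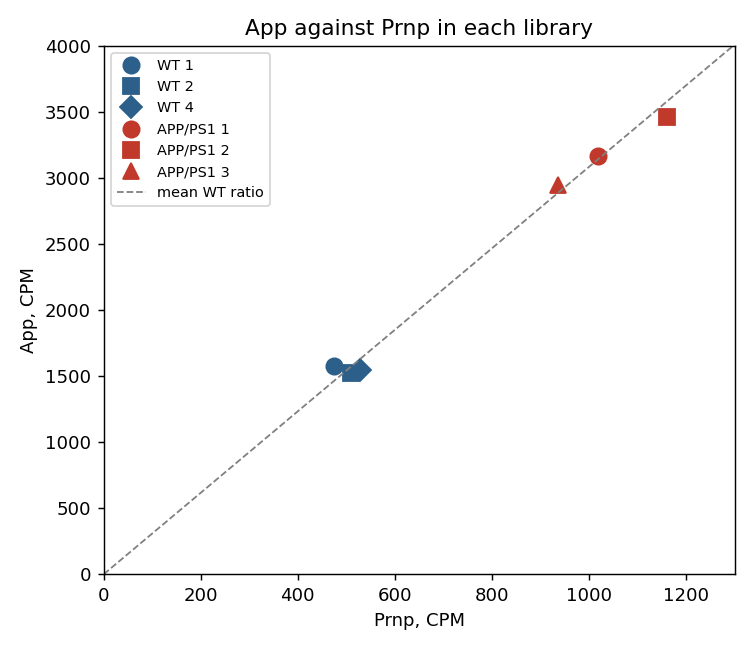
App (y axis, CPM) against Prnp (x axis, CPM) in each of 6 libraries, with axes from 0; the dashed line has the mean WT ratio of App to Prnp, 3.08. The APP/PS1 libraries lie along the same line as the WT libraries, at about 2.06 times the WT levels.

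Sprn encodes Shadoo, a neuronal relative that shares the central hydrophobic stretch of the prion protein (chromosome 7, 140150628 to 140154659). It stood at 163, 154 and 90.8 CPM in APP/PS1 replicates 1, 2 and 3, against 165, 160 and 169 CPM in WT. APP/PS1 replicate 3 lay far below the other libraries, and APP/PS1 replicate 2 slightly below WT. Its log2 fold change was -0.28 (SE 0.21, 95% interval -0.78 to 0.23; edgeR's adjusted p 0.887), and it was -0.06 (SE 0.06) without APP/PS1 replicate 3. In APP/PS1 its coefficient of variation, 28.9%, was the highest of the 9 tested genes, against 2.89% in WT.

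Prnd encodes doppel, a prion-like protein of the testis (chromosome 2, 131950861 to 131956131). It was listed at 0 in all 6 libraries, as were 3608 genes of the table in all. Taking 1 fragment as about 4 estimated counts, a limit of 3 fragments allows up to 0.082 to 0.10 CPM per library, for counting error only. Prn, the readthrough gene whose annotated span runs from the start of Prnp to the end of Prnd (131909928 to 131956131), was at 0.10, 0.059 and 0.13 CPM in APP/PS1 replicates 1, 2 and 3. In WT replicates 1, 2 and 4 it was at 0.099, 0.24 and 0.14 CPM. These are levels of a few fragments, and reads in exons that Prn shares with Prnp or Prnd could be credited to any of them, so the values of Prn and Prnd are uncertain.

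Itm2b and Itm2c encode BRI2 and BRI3, membrane proteins that bind the amyloid precursor and limit its cleavage. Itm2b (chromosome 14, 73362226 to 73385289), mutated in familial British and Danish dementia, stood at 349.8, 352 and 460 CPM in APP/PS1 replicates 1, 2 and 3. In WT replicates 1, 2 and 4 it stood at 338, 331 and 347 CPM. The groups did not overlap, but replicates 1 and 2 exceeded the highest WT library by only a few CPM. Its log2 fold change was 0.19 (SE 0.12, 95% interval -0.10 to 0.48; edgeR's adjusted p 0.887), or 0.04 (SE 0.05) without APP/PS1 replicate 3.

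Itm2c (chromosome 1, 85894510 to 85908698) stood at 404, 408 and 317 CPM in APP/PS1 replicates 1, 2 and 3, against 413, 424 and 379 CPM in WT. Replicates 1 and 2 of APP/PS1 lay inside the WT range and replicate 3 below it. This gave a log2 fold change of -0.11 (SE 0.12, 95% interval -0.39 to 0.17; edgeR's adjusted p 0.887), and -0.001 (SE 0.07) without that library.

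Apbb1 and Apba1 encode Fe65 and X11 alpha (Mint1), adaptors that bind the cytoplasmic tail of the precursor at its YENPTY motif. Apbb1 (chromosome 7, 105558465 to 105581924) stood at 204, 195 and 192 CPM in APP/PS1 replicates 1, 2 and 3, against 194, 183 and 205 CPM in WT. All APP/PS1 values lay inside the WT range, including that of replicate 3. The log2 fold change of 0.02 (SE 0.08) had a 95% interval of -0.16 to 0.20 (edgeR's adjusted p 0.953), and without that library it was 0.04 (SE 0.07).

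Apba1 (chromosome 19, 23758806 to 23949598) stood at 365, 356 and 319 CPM in APP/PS1 replicates 1, 2 and 3, against 357, 354 and 436 CPM in WT. WT replicate 4 was the highest library and APP/PS1 replicate 3 the lowest, with the other 4 close together. Its log2 fold change was -0.14 (SE 0.11, 95% interval -0.40 to 0.12; edgeR's adjusted p 0.887). Leaving out APP/PS1 replicate 3 gave -0.09 (SE 0.10), and leaving out WT replicate 4 gave -0.04.

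**Figure D3:**
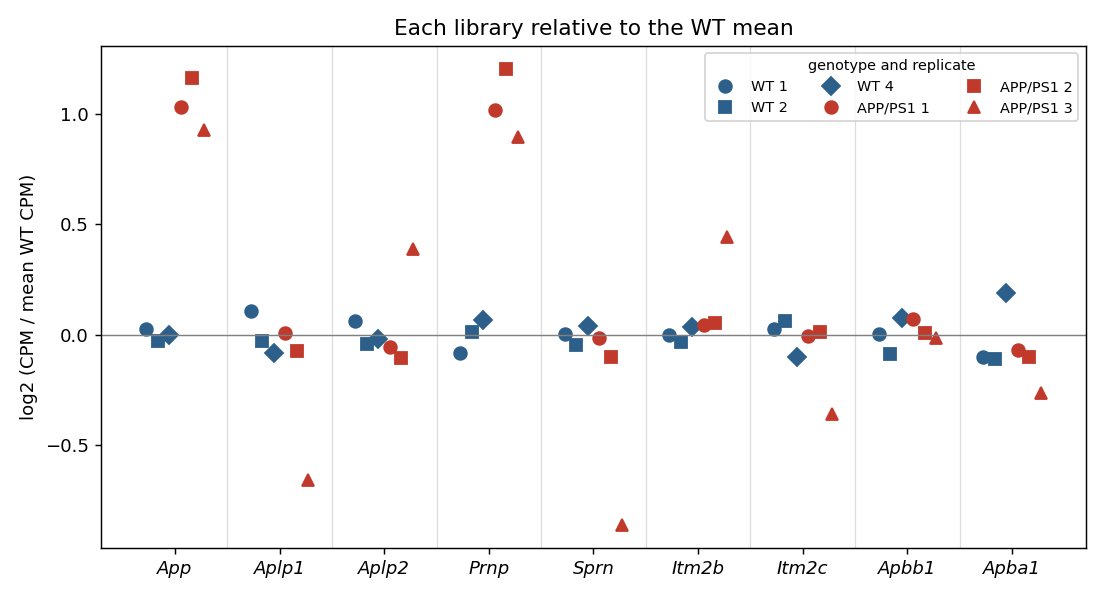
Each library's level as log2 of its CPM over the mean WT CPM (y axis, 0 is the WT mean) for the 9 tested genes; blue marks WT, red APP/PS1, and symbols the replicate number. APP/PS1 replicates 1 and 2 stay within about 0.10 of the WT mean for every gene except App and Prnp, while replicate 3 ranges, for those other genes, from -0.86 for Sprn to 0.44 for Itm2b.

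Across the genes, APP/PS1 replicate 3 was the highest or lowest library for 6 of the 9, near its share over all tested genes (61.6%). The 6 were Aplp1, Sprn, Itm2c and Apba1, each lowest there, and Aplp2 and Itm2b, each highest there. On the log2 scale that library lay -0.66 from the WT mean for Aplp1, -0.86 for Sprn, -0.36 for Itm2c and -0.26 for Apba1. It lay 0.39 above for Aplp2 and 0.44 above for Itm2b. Against the mean of the WT libraries, the same library had lower summed markers of neurons (-0.26 on the log2 scale), astrocytes (-0.44), microglia (-0.60) and oligodendrocytes (-0.35). Summed oligodendrocyte markers stood at 2327, 2818 and 2260 CPM in APP/PS1 replicates 1, 2 and 3, against 3569, 2686 and 2394 CPM in WT. APP/PS1 replicate 1 was thus also below WT for these, and WT replicate 1 was well above the other libraries. For APP/PS1 replicate 3, the median over the 5 single markers of each list was -0.43 for neurons, -0.66 for microglia and -0.47 for oligodendrocytes, but -0.001 for astrocytes. Its summed choroid plexus markers lay 0.54 above and its endothelial markers 0.09 above, and no marker of these 5-gene lists was at 0 in any library. The part of these shifts in the results for the 6 genes was not tested.

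With all 6 libraries, 0 of the 9 tested genes passed edgeR's adjusted threshold, which 0.00554% of all genes passed (1 gene, none of the 9). At an unadjusted p under 0.05 there were 2 of the 9, App and Prnp, against 3.42% of all genes. Limma-voom called 0 of the 9, where it called 0.00554% of all genes. DESeq2 called 2, App and Prnp, with 0.144% of all genes called. Without APP/PS1 replicate 3, edgeR called the same 2, both higher, where it called 0.0273% of all genes, 0.0164% as higher, and DESeq2 in those 5 libraries called these 2 and 0.295% of all genes. All 3 APP/PS1 libraries lay above all 3 WT libraries for 3 of the 9, App, Prnp and Itm2b, against 5.63% of all genes. None of the 9 had all APP/PS1 libraries below WT, as 4.76% of all genes had. Without APP/PS1 replicate 3 the same 3 were higher with no overlap, against 10% of all genes, and Aplp2 was lower with no overlap, against 9.37%. The 7 genes other than App and Prnp had log2 fold changes from -0.28 to 0.19 with all libraries and from -0.09 to 0.04 without APP/PS1 replicate 3. Their medians were -0.11 and -0.04, beside 0.01 and -0.001 over all tested genes.

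**Figure D4:**
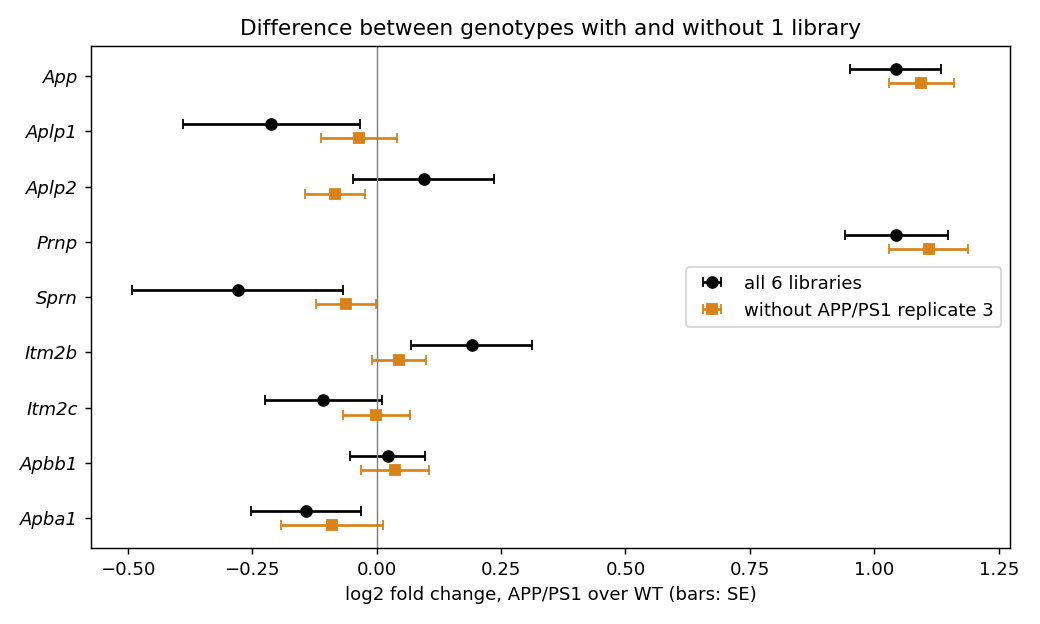
Log2 fold change of APP/PS1 over WT (x axis, bars are SE) for the 9 tested genes, with all 6 libraries (black circles) and without APP/PS1 replicate 3 (orange squares). App and Prnp lie near 1 in both fits, and without that library the other genes lie between -0.09 and 0.04.

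Other adaptors and trafficking partners of the precursor were listed separately: the Fe65 and X11 relatives, phosphotyrosine-binding adaptors, sorting receptors and the kinesin light chain. All 20 listed genes were tested, and edgeR called 0 of them higher and 0 lower, where it called 0.00554% of all genes. At an unadjusted p under 0.05 there were 0, against 3.42% of all genes. DESeq2, with 0.144% of all genes called, and limma-voom, with 0.00554%, also called 0. There were 10 of 20 with positive values, with a median log2 fold change of -0.01 and a range of -0.40 to 0.35. Leaving out APP/PS1 replicate 3, edgeR again called 0, where it called 0.0273% of all genes. The median was then -0.002 and the range -0.24 to 0.33. The direct relatives of the adaptors had log2 fold changes of 0.02 for Apbb2, 0.09 for Apbb3, 0.01 for Apba2 and -0.04 for Apba3. Without that library they had -0.04, -0.02, 0.05 and -0.12 in the same order, so Apbb2 and Apbb3 changed sign.
Shc3, a neuronal Shc adaptor, had the smallest unadjusted p of the list. It stood at 66.2, 61.3 and 36.2 CPM in APP/PS1 replicates 1, 2 and 3, against 70.8, 74.4 and 70.5 CPM in WT, a log2 fold change of -0.40 (SE 0.22; edgeR's adjusted p 0.887). Without APP/PS1 replicate 3 it was -0.18. Kat5, the acetyltransferase Tip60 that forms a complex with Fe65 and the precursor's tail, had -0.21 (SE 0.12; edgeR's adjusted p 0.887), or -0.24 without APP/PS1 replicate 3. Sorl1, a sorting receptor that holds the precursor in the trans-Golgi, had 0.22 (SE 0.15; edgeR's adjusted p 0.887), or 0.07 without APP/PS1 replicate 3.

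Among 8 binding partners of the prion protein, edgeR called 0, with 0 at an unadjusted p under 0.05, against 0.00554% and 3.42% of all genes. DESeq2, with 0.144% of all genes called, and limma-voom, with 0.00554%, called 0. Their median log2 fold change was -0.10, with 3 of 8 positive, and -0.004 without APP/PS1 replicate 3. Ncam1, a neural adhesion molecule, stood at 520, 481 and 476 CPM in APP/PS1 replicates 1, 2 and 3, against 679, 524 and 523 CPM in WT. The groups did not overlap, as for 4.76% of all genes in the lower direction, with WT replicate 1 well above the rest. The log2 fold change was -0.23 (SE 0.12, edgeR's adjusted p 0.887), or -0.21 without APP/PS1 replicate 3. Stip1, a co-chaperone that binds the prion protein at the cell surface, had 0.10 (SE 0.08), and Rpsa, the laminin receptor precursor and ribosomal protein, -0.12 (SE 0.13), each with edgeR's adjusted p at 0.887. Leaving out APP/PS1 replicate 3 gave 0.12 for Stip1 and -0.02 for Rpsa, so the value of Rpsa rested mostly on that library.

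The tested genes before and after App and Prnp in order of start position on their chromosomes were also read, 3 per side. Prn, counted among those before Prnp, starts at the same base and spans it, so it overlaps Prnp rather than lying beside it. EdgeR called 0 of the 12, with 1 at an unadjusted p under 0.05, against 0.00554% and 3.42% of all genes. DESeq2, with 0.144% of all genes called, and limma-voom, with 0.00554%, called 0. The median log2 fold change was -0.01, with 6 of 12 positive. Without APP/PS1 replicate 3 edgeR called 0 of the 12, against 0.0273% of all genes, and the median was -0.02. Beside App, Jam2 had -0.06, Atp5j -0.09, Gabpa 0.26, Cyyr1 0.07 and Adamts1 0.13, and Gm10791, annotated inside the App span, had 0.07. Without that library Jam2 had -0.21 (edgeR's adjusted p 0.995), with both APP/PS1 libraries below WT, as for 9.37% of all genes. In the same fit Gabpa had 0.17, Atp5j -0.09, Cyyr1 0.06, Adamts1 0.13 and Gm10791 0.02. Gabpa, an ETS-family transcription factor, stood at 39.3, 40.7 and 47.2 CPM in APP/PS1 replicates 1, 2 and 3, against 33.4, 34.0 and 38.9 CPM in WT. Its groups did not overlap, as for 5.63% of all genes in the higher direction, but the nearest values differed by less than 1 CPM. In edgeR's test its unadjusted p was 0.0459 and its adjusted p 0.887. Beside Prnp, Rassf2 had -0.09, Slc23a2 -0.01 and Tmem230 0.001, or -0.13, -0.01 and -0.03 without APP/PS1 replicate 3. The other neighbours, 5330413P13Rik at 0.10 (SE 0.36), Erv3 at -0.71 (SE 0.56) and Prn at -0.68 (SE 0.54), were of low level and wide error. They had 0.36, -0.72 and -0.97 without that library.

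**Figure D5:**
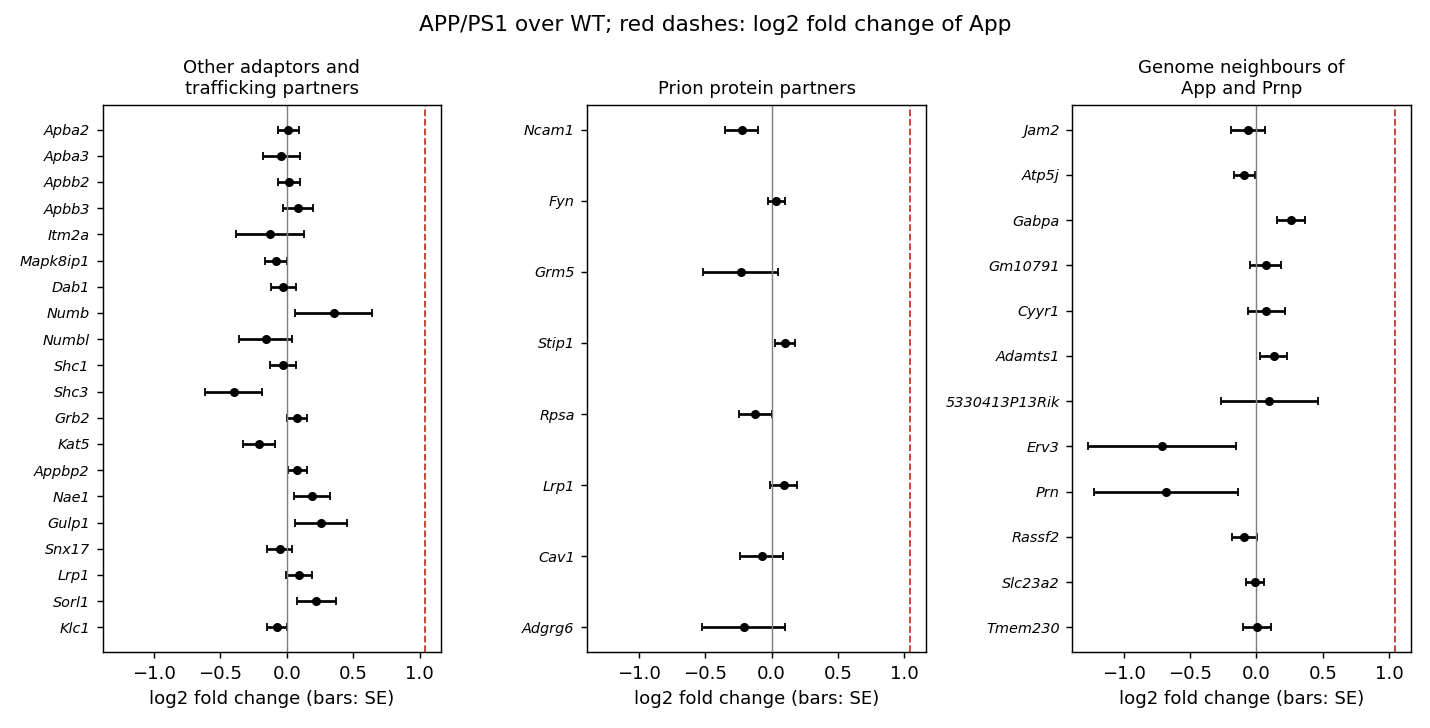
Log2 fold change of APP/PS1 over WT (x axes, bars are SE) with all 6 libraries for 20 other adaptors and trafficking partners, 8 partners of the prion protein and 12 genome neighbours of App and Prnp. The grey line marks 0 and the red dashes the value of App, 1.04, and every listed gene lies left of the dashes.

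To find genes with a like pattern, log2 CPM was centred over the 6 libraries and the root mean square difference taken against 15009 genes with a mean count of at least 100. Prnp lay at 0.06 from App, closer than any of these 15009 genes to either. The distances also hold counting error, which is larger for genes near that minimum count than for App and Prnp. The 5 nearest to App were Cdh3 (0.16), Sdf2l1 (0.22), Aldh7a1 (0.23), Crb3 (0.23) and Krt18 (0.23), and the same 5 were nearest to Prnp, from 0.18 for Cdh3 to 0.25 for Crb3. These 5 were picked for their pattern over the same 6 libraries, so their values are a description of that choice. Crb3 was at only 133, 183 and 176 estimated counts in APP/PS1 replicates 1, 2 and 3. In WT replicates 1, 2 and 4 it was at 102, 101 and 98. Cdh3, which encodes P-cadherin, stood at 4.20, 5.81 and 4.38 CPM in APP/PS1 replicates 1, 2 and 3, against 2.48, 2.37 and 1.85 CPM in WT. Aldh7a1, an aldehyde dehydrogenase of lysine breakdown, stood at 53.7, 63.6 and 55.4 CPM in APP/PS1 replicates 1, 2 and 3, against 37.0, 36.8 and 40.0 CPM in WT. In edgeR's test each of the 5 had an adjusted p of 0.887.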

How the data were processed

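The authors made the total RNA table from stranded total RNA libraries and deposited it as whole-number estimated counts per gene symbol, using HISAT2, StringTie and DESeq on build mm10, per the submitters' processing notes, which state no roles. How reads were counted, on which strand and with which filters is not given in the sources used here. The values 3, 4, 5, 6, 7 and 8 occurred 897, 1817, 1346, 624, 588 and 1201 times. From the peaks at 4 and 8, 1 fragment was taken as about 4 counts. With 5 also frequent this unit is approximate, and the depth in fragments is uncertain. Of 24736 symbols, 24072 matched RefSeq (GRCm38.p6), which gave positions.

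The whole table was fitted with edgeR 4.0.16 in R 4.3.3 (TMM, filterByExpr, quasi-likelihood test, no covariate), and Benjamini-Hochberg adjustment covered all 18060 genes kept. SE is the log2 fold change over the root of F. The biological coefficient of variation was 26.5%, or 19.7% without APP/PS1 replicate 3. DESeq2 1.42.0, limma-voom (limma 3.58.1), other scalings and filters, counts divided by 4, a replicate block and leaving out each library were tried. The edgeR procedure was run on simulated counts with set fold changes, which held no outlying library such as APP/PS1 replicate 3. P-values of the fits set the genotype difference against the spread between these libraries, as modelled with all genes. Those of the permutation test set it against the other ways to split the libraries. The genes and lists were chosen with earlier results of these data known. Named besides the 10 genes were the 3 genes of smallest p per list, all neighbours and the 5 genes most like App or Prnp. A gene of the construct that the rule named is not reported here. Other relatives are given by log2 fold change.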

Additional observations from a re-analysis of the deposited data

How the results depend on the processing

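The count of the 9 tested genes past the adjusted threshold was 0 with all 6 libraries in edgeR and 2, App and Prnp, with DESeq2. It ran from 0 to 2 in edgeR over fits leaving out 1 library each, with 2 only without APP/PS1 replicate 3, and was 2 with DESeq2 without that library, a setting chosen after seeing the data. Over all genes the count was 1 in edgeR and 26 with DESeq2 (13 higher, 13 lower). It ran from 0 to 6 with 1 library fewer and was 54 with DESeq2 without APP/PS1 replicate 3. The cause of these differences was not tested.

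App kept log2 fold changes of 0.98 to 1.10 and Prnp of 0.96 to 1.14 over the 16 alternatives. Their adjusted p ran from 1.9e-52 to 0.906 and from 2.8e-31 to 0.991, and each passed in 3 of the 16. The highest adjusted p came from edgeR without WT replicate 2 for App and without WT replicate 1 for Prnp. Aplp1, Sprn, Itm2b and Itm2c kept their sign in all 16. Aplp2 changed sign to -0.087 with the replicate block and -0.082 with DESeq2 without APP/PS1 replicate 3, and ran from -0.082 to 0.18 with 1 library fewer. Apbb1 changed sign to -0.010 with upper quartile scaling and ran from -0.017 to 0.063 with 1 library fewer. The log2 difference in the ratio of App to Prnp ran from -0.034 to 0.056 with 1 library fewer, and that of App to the sum of Aplp1 and Aplp2 from 1.06 to 1.16. The 3 lists had 0 genes past the threshold under every alternative run for them.

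With the replicate number as a block, 2 genes passed, neither among the 9, with edgeR's adjusted p at 0.0919 for App and 0.0603 for Prnp, and Apba1 changed sign to 0.020. The numbers 1 and 2 are shared by the groups, but nothing in the labels ties them to a pairing. Number 3 is found only in APP/PS1 and number 4 only in WT. Those libraries therefore add nothing to the genotype difference in the block fit, which rests on the libraries numbered 1 and 2 alone. Deviations from the group means correlated across genes at 0.18 for number 1 and -0.04 for number 2. For pairs of libraries with unlike numbers the correlations ran from -0.12 to 0.10. Depth limits the values of Prnd and Prn.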

Other observations

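Ratios of relatives within a library, chosen after their values were seen, are free of library scaling. Aplp2 to Aplp1 stood at 0.650, 0.667 and 1.41 in APP/PS1 replicates 1, 2 and 3, against 0.659, 0.673 and 0.710 in WT replicates 1, 2 and 4. Itm2b to Itm2c stood at 0.866, 0.861 and 1.45 in APP/PS1 replicates 1, 2 and 3, against 0.819, 0.782 and 0.917 in WT. In both pairs APP/PS1 replicate 3 was the highest library, and the other APP/PS1 libraries lay within or just below the WT range. Apbb1 to Apba1 stood at 0.559, 0.547 and 0.601 in APP/PS1 replicates 1, 2 and 3. In WT replicates 1, 2 and 4 it stood at 0.544, 0.516 and 0.469. The groups did not overlap, but APP/PS1 replicate 2 and WT replicate 1 nearly met, at 0.547 and 0.544. The lowest ratio was in WT replicate 4, where Apba1 was highest, at 436 CPM. How often ratios of other gene pairs separate the groups was not computed. No test was run on these ratios.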
